A study of Mus musculus with 12 samples.

Results

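RNA of the Rab3 GTPases and the active zone proteins that work with them was followed in sorted mouse midbrain cells after injection of α-synuclein fibrils or saline. The 10 genes were Rab3a, Rab3b, Rab3c and Rab3d, the Rab3 effectors Rims1, Rims2 and Rph3a, the priming factor Unc13a, and the scaffolds Bsn and Pclo. They were taken by symbol from 24346 genes in the deposited tables, and all 10 passed the filter on low counts that left 17380 genes for testing. All mice were C57BL/6, and cells of all groups were sorted from midbrain for the fluorescent reporter hKO1, the study's marker of dopaminergic neurons. The 4 groups of 3 libraries were mice sampled 12 weeks after preformed fibrils of G51D α-synuclein, mice sampled 12 weeks after saline, mice sampled 7 weeks after the fibrils and mice sampled 7 weeks after saline. G51D is a form of the protein found in families with Parkinson's disease, and injections were made into the substantia nigra on both sides. The labels give neither the ages of the mice, nor what drives hKO1, nor whether the libraries of a group came from separate mice.

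Rab3 proteins are small GTPases that sit on synaptic and secretory vesicles when bound to GTP and return to the cytosol after hydrolysis. On the vesicle they recruit effectors, and RIM proteins, encoded by Rims1 and Rims2, tie GTP-bound Rab3 to the presynaptic active zone beside Munc13-1, the product of Unc13a, which readies vesicles for fusion. In dopaminergic neurons the same machinery serves dopamine release, and α-synuclein is itself a presynaptic protein whose dissociation from membranes has been linked to the Rab3a cycle.

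The 4 Rab3 genes encode close relatives, so stretches of their coding sequence are shown to make clear how far reads can be told apart. The most alike in-frame window of 60 coding bases across the 4 genes, from GENCODE M21 transcripts, is given with capitals at bases that differ from Rab3a.
Rab3a coding bases 211 to 270: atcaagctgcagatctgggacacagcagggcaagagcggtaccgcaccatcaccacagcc
Rab3b coding bases 211 to 270: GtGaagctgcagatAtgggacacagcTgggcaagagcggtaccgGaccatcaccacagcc
Rab3c coding bases 235 to 294: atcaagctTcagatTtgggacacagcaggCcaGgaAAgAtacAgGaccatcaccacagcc
Rab3d coding bases 211 to 270: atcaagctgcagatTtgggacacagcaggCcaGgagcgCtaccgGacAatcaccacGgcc
Rab3b differed from Rab3a at 5 of these bases, Rab3d at 7 and Rab3c at 9. Over the aligned coding sequences identity between pairs lay between 74.4% (Rab3b and Rab3c) and 77.5% (Rab3b and Rab3d). The longest exact run that 2 of them shared in the coding sequence was 33 bases, in Rab3b and Rab3d. How such shared runs were handled in the authors' counting is not stated.

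Rab3a and Rab3c are the members whose RNA was lower at 12 than at 7 weeks in the results that follow, and Rab3d is the Rab3 gene with a fold above 0. Their promoters are therefore shown. Each window runs from 250 bases before the RefSeq start to 50 after it, on GRCm38.p6 and in the direction of transcription. Capitals mark the GC box GGGCGG, the TATA box TATAAA, the cyclic AMP response element TGACGTCA and the E box CACGTG, each searched on both strands, and in these windows the marked motifs do not overlap.
Rab3a promoter window, chr8:70754453-70754752, plus strand: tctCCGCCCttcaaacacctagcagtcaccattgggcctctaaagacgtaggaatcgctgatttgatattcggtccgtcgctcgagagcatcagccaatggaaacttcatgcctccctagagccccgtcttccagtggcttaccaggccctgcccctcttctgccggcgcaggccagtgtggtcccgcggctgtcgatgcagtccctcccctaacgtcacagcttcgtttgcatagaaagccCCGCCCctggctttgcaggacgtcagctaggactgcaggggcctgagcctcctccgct
Rab3c promoter window, chr13:110280157-110280456, minus strand: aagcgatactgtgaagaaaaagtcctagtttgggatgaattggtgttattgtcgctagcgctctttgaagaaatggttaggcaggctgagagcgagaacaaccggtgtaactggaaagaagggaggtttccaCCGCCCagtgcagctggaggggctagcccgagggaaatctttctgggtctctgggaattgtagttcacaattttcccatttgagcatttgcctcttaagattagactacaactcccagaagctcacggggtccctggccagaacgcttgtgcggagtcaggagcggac
Rab3d promoter window, chr9:21918134-21918433, minus strand: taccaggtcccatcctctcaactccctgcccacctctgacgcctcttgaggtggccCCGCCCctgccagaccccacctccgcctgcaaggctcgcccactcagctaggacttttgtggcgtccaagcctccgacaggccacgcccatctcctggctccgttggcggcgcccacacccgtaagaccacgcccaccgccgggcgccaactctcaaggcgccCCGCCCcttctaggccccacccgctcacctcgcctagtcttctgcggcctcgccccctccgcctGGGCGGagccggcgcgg
The Rab3a window held 2 GC boxes, the Rab3c window 1 and the Rab3d window 3, and none held the other motifs. Among 32851 RefSeq windows of the same length, 35.7% held a GC box, 13.6% a TATA box, 7.15% an E box and 1.79% a cyclic AMP response element. The GC content was 60% in the Rab3a window, 50.7% in the Rab3c window and 71% in the Rab3d window. RefSeq gives Rab3a a second start downstream, whose window at chr8:70754852-70755151 held 0 GC boxes and had a GC content of 65.3%.

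Per transcript length, Rab3a was by far the most abundant member. Its FPKM (fragments scaled for transcript length and library depth, as deposited) averaged 96.2 ± 51.8 (SD, n = 12) with a range of 48.6 to 238, which was 5.97 times the mean of the next gene and did not overlap its range. Rab3d followed with 16.1 ± 5.19 FPKM, Rab3c with 10.2 ± 6.19 and Rab3b with 6.26 ± 2.82, and the ranges of these neighbours overlapped. Rab3a is the main Rab3 protein of brain synaptic vesicles, whereas Rab3d is known chiefly from secretory granules of exocrine and other secretory cells.

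Among the partners, FPKM were lower and each overlapped the next gene in the order. Rph3a, which encodes the vesicle-bound Rab3 effector rabphilin, averaged 5.53 ± 2.26 FPKM and Rims2 4.03 ± 1.98. The scaffold genes Bsn (Bassoon) and Pclo (Piccolo) averaged 3.01 ± 1.02 and 2.47 ± 0.602 FPKM, Rims1 2.18 ± 1.27 and Unc13a 1.77 ± 0.776. Counts scaled by TMM to a common library size (CPM), divided by the transcript length that the FPKM imply, gave the same order of all 10 genes. That length is itself derived from the FPKM, so the same order is no independent result. Rab3d held rank 2 and Rab3c rank 3 by mean FPKM in both 12-week groups. In both 7-week groups these ranks were the other way round, by a narrow margin. The 7-week means of Rab3c and Rab3d were 14.2 and 14 FPKM after synuclein and 14.3 and 14.2 FPKM after saline. Their 7-week medians had Rab3d above Rab3c, with 14.05 against 10.35 FPKM after synuclein and 14.66 against 11.92 FPKM after saline.

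**Figure D1:**
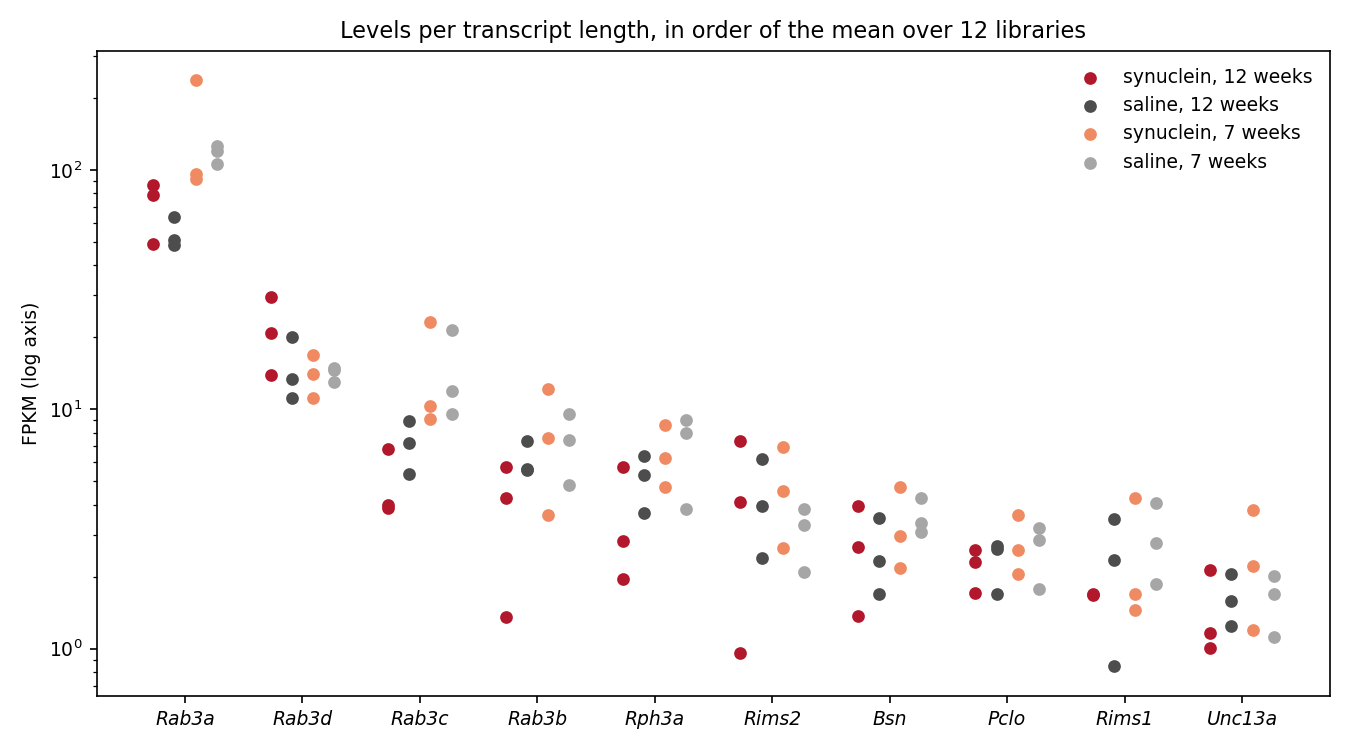
Deposited FPKM (log axis) of the 10 genes in 12 libraries, with genes in the order of their mean and 1 point per library, coloured by group. Rab3a lies above all other genes, the other neighbours overlap, and the 1 library in which Rims1 is listed at 0 is not drawn.

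The deposited loci of the 4 Rab3 genes were read as GRCm38. Rab3a lay on chr8:70754679-70760921 (plus strand), and the row also spans Mpv17l2, whose annotated gene overlaps Rab3a by 29 bases in GENCODE M21. The row runs past the end of the annotated Rab3a gene and has 156.1% of its length. Rab3b lay on chr4:108879070-108972077 (plus strand) and shares its row's span with 8030443G20Rik, by 482 annotated bases. This row also runs past the end of its annotated gene, with 144.7% of the length. Rab3c lay on chr13:110054187-110280206 (minus strand) and Rab3d on chr9:21907511-21918121 (minus strand), with no other row in their spans. The Rims1 locus covered 27.8% of the GENCODE M21 gene, so its values come from part of that gene. Rims2 lay on chromosome 15, Rph3a and Pclo on chromosome 5, Unc13a on chromosome 8 and Bsn on chromosome 9, where Bsn spans 4850 bases of 4930447F24Rik. Whether counting used strand is not stated, and values of the overlapped genes are uncertain to that extent. Values of Rab3a and Rab3b are also uncertain because their rows run past the annotated genes.

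The libraries held 2506730 to 5533321 assigned fragments. Synuclein replicates 1 and 2 at 12 weeks stood apart from the other libraries on the leading components, and replicate 2 had fragments on 17406 genes, against 19957 to 21126 in the rest. All 12 dopaminergic markers were tested, and their summed level was 563 to 1193 CPM at 12 weeks and 708 to 2603 CPM at 7 weeks. Oligodendrocyte markers summed to 29280 to 52800 CPM at 12 weeks and 18900 to 29660 CPM at 7 weeks, far above the dopaminergic ones in every library. Endothelial markers summed to 8085 to 14300 CPM at 12 weeks and 10730 to 20220 CPM at 7 weeks. They too exceeded the dopaminergic ones in every library. In synuclein replicate 1 at 7 weeks markers of other neurons, led by Tph2, summed to 801 CPM, against 42.6 to 232 CPM in the other libraries.

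Rab3a was lower at 12 than at 7 weeks. Its level was 62.1, 96.5 and 110.2 CPM at 12 weeks after synuclein and 82.7, 65.3 and 62.9 CPM at 12 weeks after saline, against 309, 117 and 123 CPM at 7 weeks after synuclein and 162, 137 and 155 CPM at 7 weeks after saline. All 6 libraries of 12 weeks lay below all 6 of 7 weeks, a complete separation that 0.386% of all genes tested showed in this direction. Averaged over both treatments, Rab3a was 2.1-fold lower at 12 than at 7 weeks (log2 fold −1.07 ± 0.23 SE, n = 6 and 6, edgeR adjusted p = 0.0438). The call was lost in 8 of 12 fits that each left out 1 library, and without both 12-week libraries that stood apart (log2 fold −0.92, edgeR adjusted p = 0.35). From sorted bulk cells, fewer cells of a type and less RNA per cell cannot be told apart. Time since injection also cannot be told apart from age, which is not given, or from other differences between the collections.

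Rab3c was lower at 12 weeks as well. It had 34.1, 32.1 and 58.4 CPM at 12 weeks after synuclein and 78.3, 62.4 and 46.5 CPM at 12 weeks after saline, against 201, 89.3 and 78.3 CPM at 7 weeks after synuclein and 186, 104 and 82.9 CPM at 7 weeks after saline. The highest 12-week library, saline replicate 1, and the lowest 7-week library, synuclein replicate 3, met at 78.3 CPM, and the other libraries of each time lay on their own side. Over both treatments the gene was 2.43-fold lower at 12 than at 7 weeks (log2 fold −1.28 ± 0.27, edgeR adjusted p = 0.0376). This call was lost in 9 of the 12 fits with 1 library left out, and without the 2 libraries that stood apart (log2 fold −1.04, edgeR adjusted p = 0.35).

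Rab3b and Rab3d did not pass the test. Rab3b had 18.3, 4.11 and 13.6 CPM at 12 weeks after synuclein and 18.3, 23.9 and 18.1 CPM at 12 weeks after saline, against 39.6, 11.7 and 24.6 CPM at 7 weeks after synuclein and 24.0, 31.2 and 15.8 CPM at 7 weeks after saline. Its groups overlapped at both times (log2 fold −0.65 ± 0.38, edgeR adjusted p = 0.65). Rab3d had 52.2, 107.8 and 78.2 CPM at 12 weeks after synuclein and 42.9, 51.0 and 76.4 CPM at 12 weeks after saline, against 43.1, 64.1 and 53.4 CPM at 7 weeks after synuclein and 55.8, 56.8 and 49.7 CPM at 7 weeks after saline. In this fit Rab3d was the only member with a fold above 0 (log2 fold 0.32 ± 0.22, edgeR adjusted p = 0.743), and its highest value came from synuclein replicate 2 at 12 weeks, one of the libraries that stood apart.

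**Figure D2:**
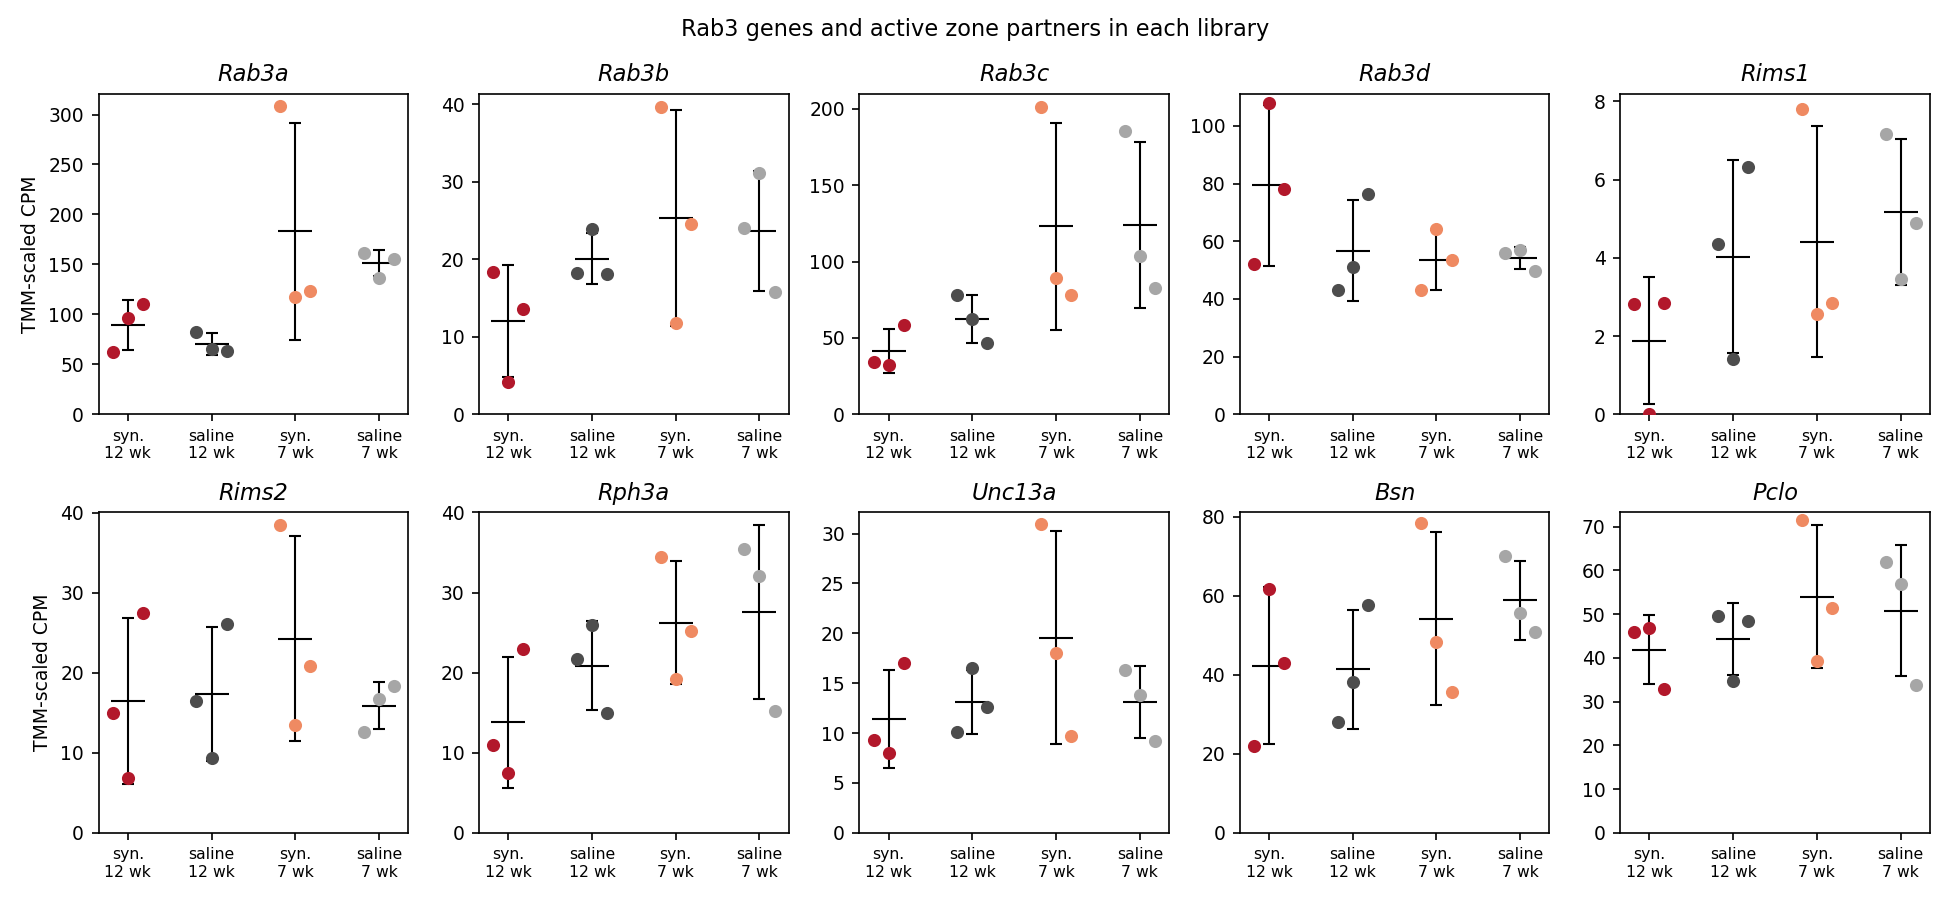
TMM-scaled CPM of the 10 genes in each library (points), with group means and SD (bars, n = 3), for synuclein and saline at 12 weeks and at 7 weeks. The 6 libraries of 12 weeks lie below all 6 of 7 weeks for Rab3a, and synuclein replicate 1 at 7 weeks, the first orange point of its group, is the highest library for 8 of the 10 genes.

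Within the Rab3 family the balance between the genes differed between the times. Rab3a made up 67.5%, 69.3% and 73.1% of the summed Rab3 FPKM at 12 weeks after synuclein and 71.2%, 64.5% and 61.1% at 12 weeks after saline, against 83.7%, 74.8% and 75.8% at 7 weeks after synuclein and 74.3%, 74.4% and 81.5% at 7 weeks after saline. The shares of Rab3a at the 2 times did not overlap. Rab3d took 12.5% to 26.1% of the sum at 12 weeks and 3.94% to 13.8% at 7 weeks, which overlapped. The sum itself was 92.1 ± 19.3 FPKM at 12 weeks and 165 ± 60.4 FPKM at 7 weeks (SD, n = 6 each).

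Ratios between the genes, taken as log2 of CPM plus 0.5, hardly depend on how libraries are scaled and were also computed. The mean log2 ratio of Rab3a to Rab3d CPM was 0.27 ± 0.44 at 12 weeks and 1.55 ± 0.68 at 7 weeks (SD, n = 6 each), with ranges of −0.28 to 0.94 and of 0.87 to 2.83 that overlapped. For Rab3c over Rab3d it was −0.39 ± 0.89 at 12 weeks and 1.09 ± 0.71 at 7 weeks. The ranges for this pair, −1.73 to 0.86 at 12 weeks and 0.47 to 2.21 at 7 weeks, overlapped as well. Rab3a over Rab3c, by contrast, was 0.65 ± 0.58 at 12 weeks and 0.46 ± 0.37 at 7 weeks, a difference of 0.19 that was smaller than either spread. Shares and ratios were computed after the values of the genes had been seen and are given with no test.

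**Figure D3:**
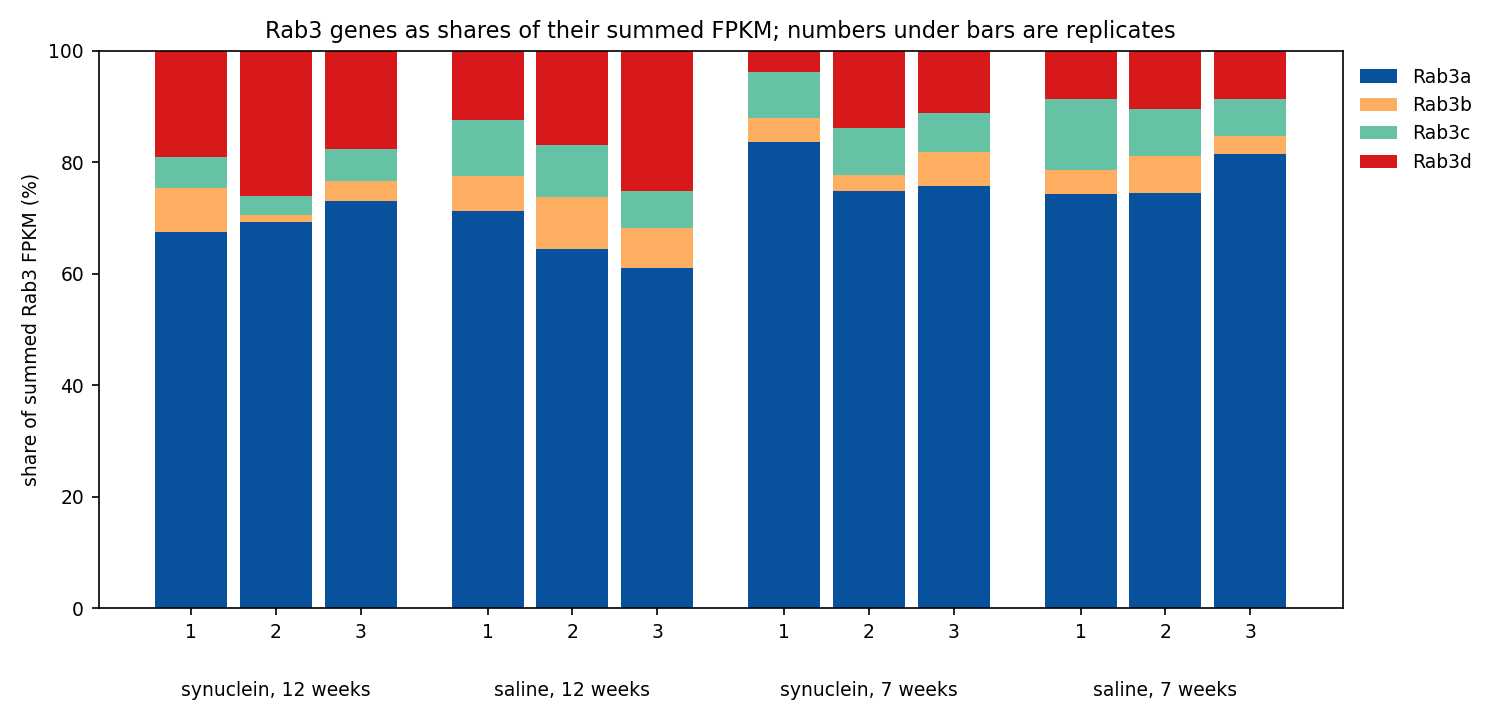
Shares of Rab3a, Rab3b, Rab3c and Rab3d in their summed FPKM (%), 1 bar per library, for synuclein and saline at 12 weeks and at 7 weeks. Rab3a takes 61.1% to 73.1% at 12 weeks and 74.3% to 83.7% at 7 weeks. Rab3d takes 12.5% to 26.1% at 12 weeks and 3.94% to 13.8% at 7 weeks, which overlap.

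Of the Rab3 effectors, none passed the test of time. Rims1 was the scarcest member by CPM, with 2.82, 0 and 2.83 CPM at 12 weeks after synuclein and 4.35, 1.43 and 6.32 CPM at 12 weeks after saline, against 7.81, 2.58 and 2.86 CPM at 7 weeks after synuclein and 7.16, 3.46 and 4.88 CPM at 7 weeks after saline. The 0 in synuclein replicate 2 at 12 weeks allows a level of up to 0.597 CPM (3 fragments), and at no more than 25 fragments a library its fold was poorly determined (log2 fold −0.79 ± 0.70, edgeR adjusted p = 0.838). Limits set by 3 fragments cover counting error only.

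Rims2 had 15.0, 6.86 and 27.5 CPM at 12 weeks after synuclein and 16.5, 9.40 and 26.1 CPM at 12 weeks after saline, against 38.5, 13.5 and 20.9 CPM at 7 weeks after synuclein and 12.6, 16.7 and 18.4 CPM at 7 weeks after saline. Its groups overlapped widely (log2 fold −0.22 ± 0.39, edgeR adjusted p = 0.944). Rph3a had 11, 7.40 and 23.0 CPM at 12 weeks after synuclein and 21.8, 25.9 and 14.9 CPM at 12 weeks after saline, against 34.4, 19.2 and 25.1 CPM at 7 weeks after synuclein and 35.5, 32.0 and 15.2 CPM at 7 weeks after saline. The lowest Rph3a libraries were synuclein replicates 1 and 2 at 12 weeks, and the times overlapped (log2 fold −0.66 ± 0.34, edgeR adjusted p = 0.569).

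Unc13a and the scaffolds had small folds. Unc13a had 9.31, 7.95 and 17.0 CPM at 12 weeks after synuclein and 10.2, 16.5 and 12.6 CPM at 12 weeks after saline, against 31.0, 18 and 9.71 CPM at 7 weeks after synuclein and 16.3, 13.9 and 9.18 CPM at 7 weeks after saline. Its highest library was synuclein replicate 1 at 7 weeks, and the times overlapped (log2 fold −0.39 ± 0.38, edgeR adjusted p = 0.854). Bsn averaged 41.8 ± 15.8 CPM at 12 weeks and 56.5 ± 15.5 CPM at 7 weeks (SD, n = 6 each, log2 fold −0.43 ± 0.27, edgeR adjusted p = 0.7), with 22 to 61.7 CPM at 12 weeks and 35.7 to 78.4 CPM at 7 weeks. Pclo averaged 43.1 ± 7.33 CPM at 12 weeks and 52.4 ± 14.1 CPM at 7 weeks (log2 fold −0.28 ± 0.23, edgeR adjusted p = 0.81), with 32.9 to 49.6 CPM at 12 weeks and 33.9 to 71.4 CPM at 7 weeks. Both scaffolds overlapped between the times.

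Over both treatments, 2 of the 10 members were thus called lower at 12 than at 7 weeks by edgeR and 0 were called higher (2 at an unadjusted p under 0.05), against 0.293% of all genes tested called lower, 0.541% called higher and 9.82% at an unadjusted p under 0.05. DESeq2 and limma-voom also called 2 members each, in the case of DESeq2 among 468 genes called of 17380. Of the folds, 9 of 10 lay below 0, against 53% over all genes, and the median log2 fold was −0.54, against −0.03. The members and this comparison were chosen with earlier results of these data known, so the contrast with all genes is a description only. With 1 library left out at a time the adjusted p of Rab3a and Rab3c by edgeR reached 0.12 for each. Without synuclein replicate 1 at 7 weeks the log2 folds were −0.76 for Rab3a (edgeR adjusted p = 0.12) and −0.99 for Rab3c (edgeR adjusted p = 0.11).

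The folds were also estimated within each treatment. After synuclein Rab3a had a log2 fold of −1.03 ± 0.33 at 12 against 7 weeks (n = 3 and 3, edgeR adjusted p = 0.467), which was −0.40 ± 0.29 without synuclein replicate 1 at 7 weeks. After saline it had −1.11 ± 0.33 (edgeR adjusted p = 0.332), and −1.2 to −1 with 1 library left out. Rab3c had −1.57 ± 0.39 after synuclein (edgeR adjusted p = 0.389), or −0.99 without that replicate, and −0.99 ± 0.38 after saline (edgeR adjusted p = 0.52). In both treatments the 3 libraries of 12 weeks lay below the 3 of 7 weeks for both genes, as they did for 7.13% of all genes after synuclein and 7.83% after saline.

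By edgeR no member passed the test within a treatment. After synuclein edgeR called 0 members (2 at an unadjusted p under 0.05) beside 0% of all genes (7.58% at an unadjusted p under 0.05). DESeq2 called 1 member, Rab3c, with an adjusted p of 0.035, among 82 genes called of 17380, and limma-voom called 0 members. After saline edgeR called 0 members (2 at an unadjusted p under 0.05) beside 0% of all genes (7.42% at an unadjusted p under 0.05). DESeq2 and limma-voom called 0 members there, while DESeq2 called 165 of all genes. Folds of the other members are given for each treatment on its own. Rab3b had −1.07 ± 0.55 after synuclein and −0.23 ± 0.54 after saline, Unc13a −0.77 ± 0.54 and 0 ± 0.54, and Rims2 −0.56 ± 0.55 and 0.13 ± 0.56. The median member fold was −0.85 after synuclein and −0.30 after saline, and −0.33 after synuclein when replicate 1 at 7 weeks was left out.

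**Figure D4:**
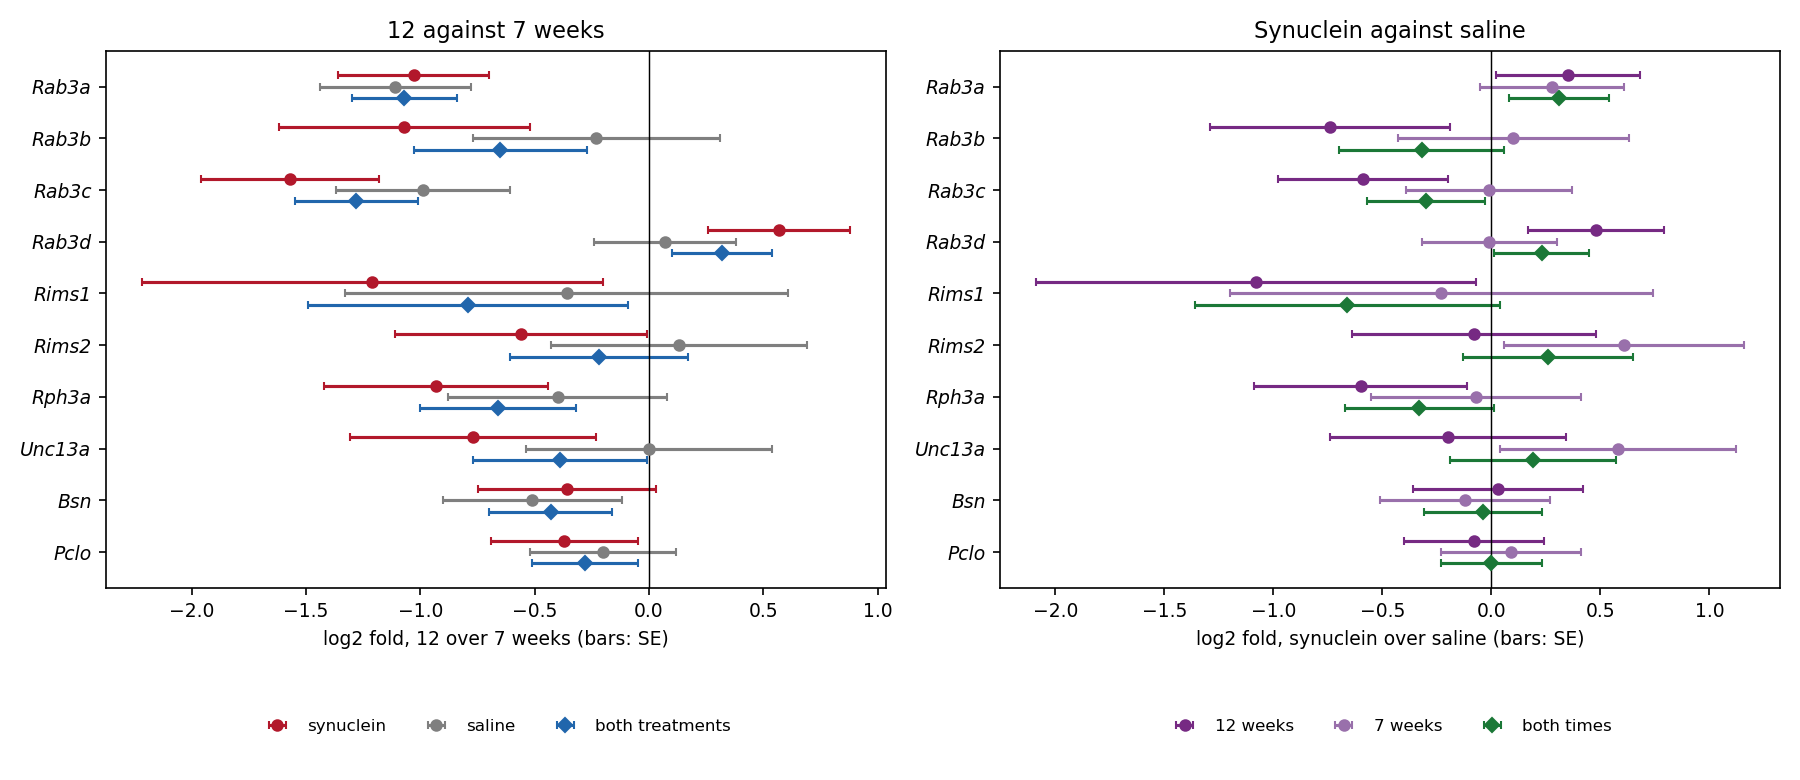
Log2 folds (points) with SE (bars) of the 10 genes from edgeR, on the left for 12 over 7 weeks after synuclein, after saline and over both treatments, and on the right for synuclein over saline at 12 weeks, at 7 weeks and over both times. Rab3a and Rab3c lie furthest from 0 in units of their SE on the left, and on the right every member lies within 2 SE of 0.

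Markers of several cell types differed between the times in the same libraries. The 16 pan-neuronal markers summed to 714 to 997 CPM at 12 weeks and 997 to 3103 CPM at 7 weeks, with 2 of 16 called lower by edgeR (Stmn2 and Stmn3), 15 of 16 folds below 0 and a median log2 fold of −1. Of the 12 dopaminergic markers 3 were called lower (Th, Slc18a2 and Chrna6), with a median of −1.27. Of the 15 oligodendrocyte markers 8 were called higher, with a median of 0.89. In the lists that follow 0 genes were called by edgeR. Of 7 ependymal and choroid plexus markers tested 6 had folds above 0, 5 of them at an unadjusted p under 0.05, with a median log2 fold of 2.28 and sums of 8.78 to 340.5 CPM at 12 weeks and 15.8 to 53.4 CPM at 7 weeks. All 12 microglia markers had folds below 0, 3 of them at an unadjusted p under 0.05, with a median of −0.82 and sums of 82.7 to 220.2 CPM at 12 weeks and 115 to 668 CPM at 7 weeks. All 10 endothelial markers had folds below 0 as well, 2 of them at an unadjusted p under 0.05, with a median of −0.29. Of 8 other neuron markers tested 7 had folds below 0, with a median of −1.05. The part of these shifts in the Rab3a and Rab3c results was not tested.

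Set against the pan-neuronal sum, Rab3a differed little between the times. It had 85, 110 and 125 CPM per 1000 CPM of those markers at 12 weeks after synuclein and 82.9, 88.9 and 88.1 at 12 weeks after saline, against 99.5, 101 and 124 at 7 weeks after synuclein and 86.8, 98.6 and 120 at 7 weeks after saline. The means were 96.7 ± 17.1 at 12 weeks and 105 ± 14.2 at 7 weeks (SD, n = 6 each), a ratio of 0.921, and the libraries intermingled. The sum includes Stmn3 and Stmn2, with means of 164 and 154 CPM over all libraries. Their patterns were those most like Rab3a in the same libraries (Pearson correlation 0.96 each). A ratio near 1 for Rab3a is therefore no independent result, and its meaning was not tested. Rab3c averaged 63.1 ± 18.4 at 12 weeks and 76.5 ± 12.9 at 7 weeks, a ratio of 0.824.

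On the same scale the other 8 members had ratios above 1. The pan-neuronal sum itself averaged 822 CPM at 12 weeks and 1630 CPM at 7 weeks. A ratio above 1 therefore does not mean a higher CPM at 12 weeks, and only Rab3d had a log2 fold of CPM above 0. Rab3d averaged 83.8 ± 28.8 at 12 weeks and 38.7 ± 15.4 at 7 weeks, a ratio of 2.17, with 43.0 to 123 at 12 weeks and 13.9 to 55.2 at 7 weeks. Bsn averaged 51.8 ± 21.1 at 12 weeks and 36.6 ± 5.93 at 7 weeks (ratio 1.41), and Pclo 53.2 ± 11.1 and 34.8 ± 10.4 (ratio 1.53). Rims2 had a ratio of 1.61, Unc13a 1.5, Rab3b 1.28, Rims1 1.25 and Rph3a 1.2. All 10 members overlapped between the times on this scale, which was described without a test.

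**Figure D5:**
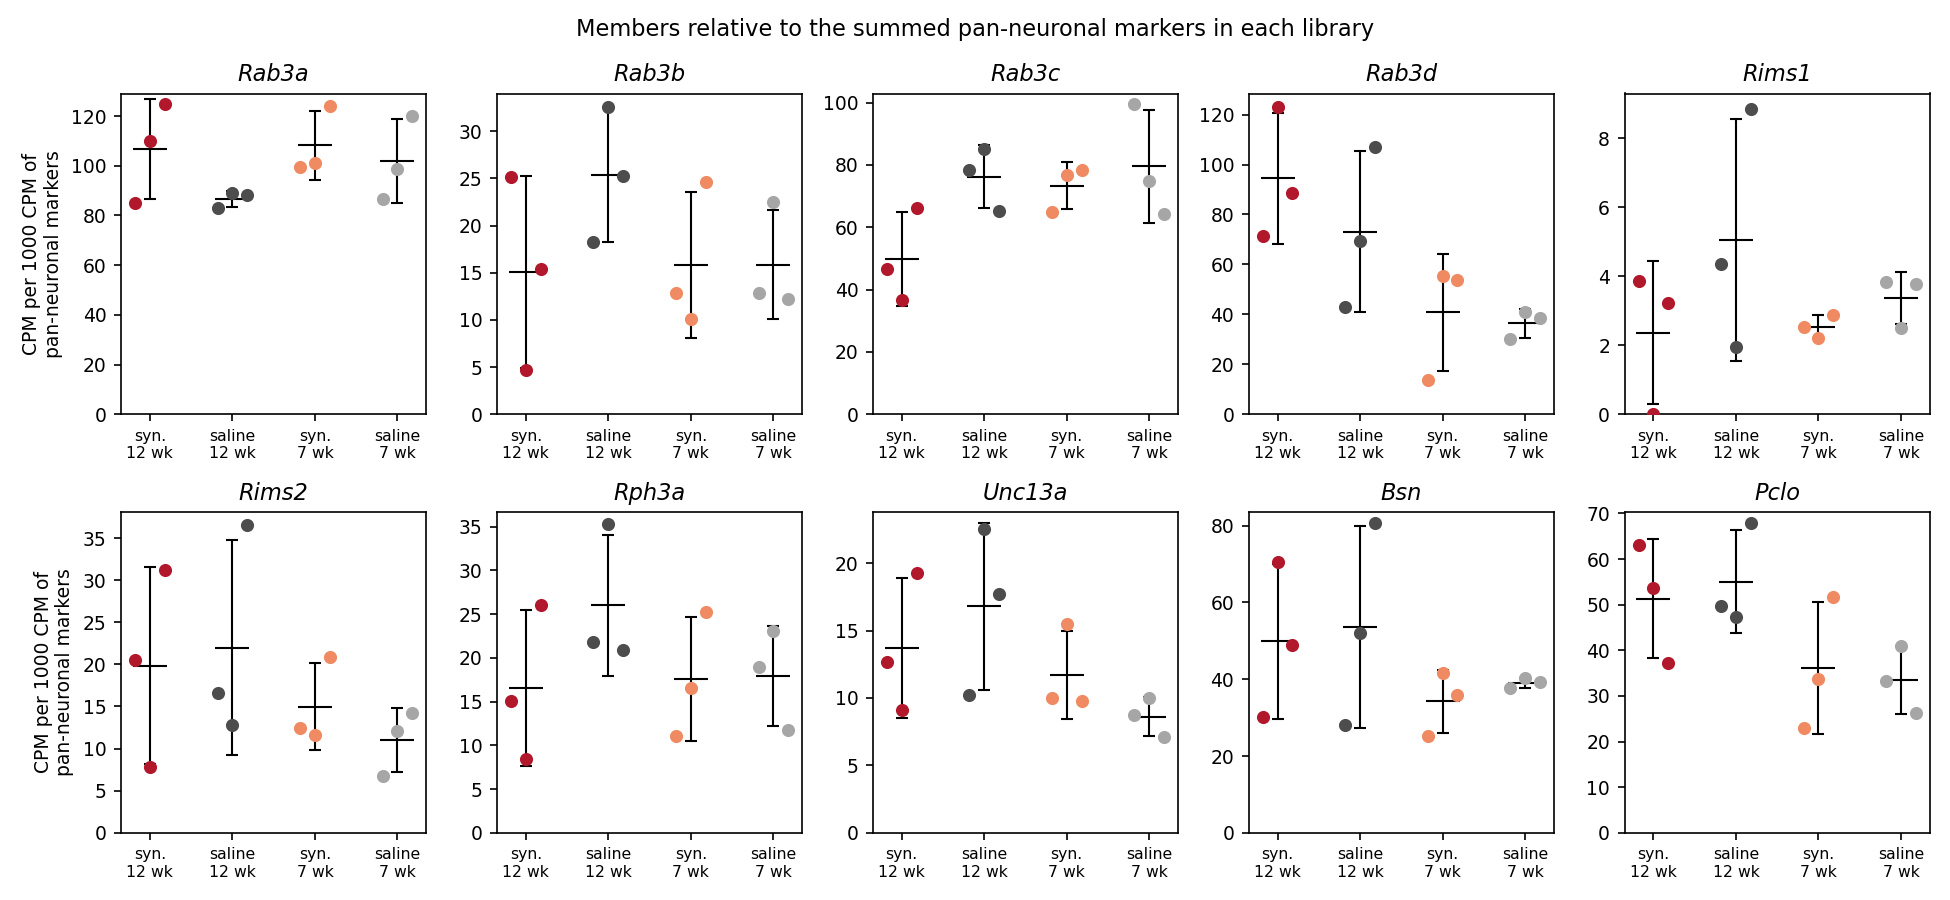
CPM of each gene per 1000 CPM summed over 16 pan-neuronal markers, by library (points) with group means and SD (bars, n = 3), for synuclein and saline at 12 weeks and at 7 weeks. The times overlap for all 10 genes, and over both treatments Rab3a has means of 96.7 at 12 weeks and 105 at 7 weeks, and Rab3d means of 83.8 at 12 weeks and 38.7 at 7 weeks.

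The question the study's design puts first is what the fibrils did to dopaminergic neurons at each time. At 12 weeks no Rab3 gene passed the test of synuclein against saline. Rab3a averaged 89.6 ± 24.8 CPM after synuclein and 70.3 ± 10.8 CPM after saline (SD, n = 3 each, log2 fold 0.35 ± 0.33, edgeR adjusted p = 0.918). Rab3c averaged 41.5 ± 14.6 CPM after synuclein and 62.4 ± 15.9 CPM after saline (log2 fold −0.59 ± 0.39, edgeR adjusted p = 0.902). The libraries of both genes overlapped between the treatments.

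Rab3b at 12 weeks averaged 12.0 ± 7.24 CPM after synuclein and 20.1 ± 3.32 CPM after saline (log2 fold −0.74 ± 0.55, edgeR adjusted p = 0.902), and its lowest library, at 4.11 CPM, was synuclein replicate 2. Rab3d averaged 79.4 ± 27.8 CPM after synuclein and 56.8 ± 17.5 CPM after saline (log2 fold 0.48 ± 0.31, edgeR adjusted p = 0.902). Among the effectors, Rims1 had the widest error (log2 fold −1.08 ± 1.01), and Rph3a had −0.60 ± 0.49. Rims2, Unc13a, Bsn and Pclo had log2 folds between −0.20 and 0.03. Without the 2 synuclein libraries that stood apart, which leaves 1 synuclein library at this time, the fold was 0.15 ± 0.56 for Rph3a, 0.67 ± 0.62 for Rims2 and 0.39 ± 0.65 for Unc13a. By edgeR 0 of 10 members were called at 12 weeks (0 at an unadjusted p under 0.05) beside 0% of all genes (5.57% at an unadjusted p under 0.05). DESeq2 and limma-voom also called 0 members, while DESeq2 called 12 of all genes.

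At 7 weeks Rab3a averaged 183 ± 109 CPM after synuclein and 151 ± 13 CPM after saline (SD, n = 3 each, log2 fold 0.28 ± 0.33, edgeR adjusted p = 1). The wide spread came from synuclein replicate 1, at 309 CPM, and without it the log2 fold was −0.32 ± 0.29. Rab3c averaged 123 ± 68.1 CPM after synuclein and 124 ± 54.3 CPM after saline (log2 fold −0.01 ± 0.38, or 0.39 ± 0.40 without saline replicate 1 and −0.56 ± 0.37 without synuclein replicate 1), and Rab3d 53.5 ± 10.5 CPM after synuclein and 54.1 ± 3.88 CPM after saline (log2 fold −0.01 ± 0.31). The largest folds were those of Rims2 at 0.61 ± 0.55 and Unc13a at 0.58 ± 0.54, and every member lay within 2 SE of 0. By edgeR 0 of 10 members were called at 7 weeks (0 at an unadjusted p under 0.05) beside 0% of all genes (1.64% at an unadjusted p under 0.05). Neither DESeq2 nor limma-voom called a member (0 each).

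Averaged over both times, synuclein against saline gave log2 folds of 0.31 ± 0.23 for Rab3a, −0.32 ± 0.38 for Rab3b, −0.30 ± 0.27 for Rab3c and 0.23 ± 0.22 for Rab3d. The members ranged from −0.66 for Rims1 to 0.31 for Rab3a. Of the 10 members edgeR called 0 (0 at an unadjusted p under 0.05) beside 0% of all genes (2.48% at an unadjusted p under 0.05). DESeq2 and limma-voom called 0 members as well, while DESeq2 called 3 of all genes. No effect of the fibrils on these 10 genes was thus detectable at this depth and number of libraries. An SE of 0.22 for Rab3d and of 0.23 for Rab3a over both times leaves room for moderate effects.

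An interaction term compared the synuclein effect at 12 weeks with that at 7 weeks. The difference was 0.07 ± 0.46 for Rab3a, −0.84 ± 0.76 for Rab3b, −0.57 ± 0.54 for Rab3c and 0.50 ± 0.44 for Rab3d on the log2 scale. Without synuclein replicate 1 at 7 weeks it was 0.71 ± 0.39 for Rab3a and 0.01 ± 0.51 for Rab3c. By edgeR 0 of 10 members were called (0 at an unadjusted p under 0.05, smallest adjusted p = 0.952) beside 0% of all genes (4.49% at an unadjusted p under 0.05), and limma-voom and DESeq2 called 0. The median of −0.55 over the members, against −0.05 over all genes, is therefore a description.

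The proteins that turn the Rab3 cycle were measured through 15 genes, and edgeR, DESeq2 and limma-voom called 0 of the 15 in any comparison (2 were lower at 12 than at 7 weeks over both treatments at an unadjusted p under 0.05 by edgeR, beside 9.82% of all genes in either direction). Over both treatments 12 of 15 folds of 12 against 7 weeks lay below 0, with a median log2 fold of −0.21. Among the genes with the highest CPM, Rabac1, for a Rab acceptor protein of membranes, had 349 CPM at 12 weeks and 380 CPM at 7 weeks (log2 fold −0.12 ± 0.18), and Gdi2, for a protein that extracts GDP-bound Rab proteins from membranes, 312 CPM at 12 weeks and 354 CPM at 7 weeks (−0.21 ± 0.17). The Rab3 exchange factor gene Madd had −0.42 ± 0.23 (edgeR adjusted p = 0.599), and Rab3gap1 and Rab3gap2, subunits of the complex that speeds GTP hydrolysis, had −0.02 ± 0.27 and −0.21 ± 0.19. These 3 genes were chosen for their role after their values had been seen.

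Of 14 Rab27 relatives and effectors with related Rab-binding or C2 domains, and synapsins, 13 were tested and edgeR and limma-voom called 0 in any comparison (4 lower and 1 higher at 12 than at 7 weeks over both treatments at an unadjusted p under 0.05 by edgeR, beside the same 9.82% of all genes). DESeq2 called 2 for 12 against 7 weeks over both treatments, Syn1 lower and Sytl2 higher, among 468 genes it called in all. The median log2 fold of 12 against 7 weeks was −0.58. The synapsin genes Syn2 and Syn1, for proteins that tether synaptic vesicles, had −0.85 ± 0.40 (edgeR adjusted p = 0.482) and −1.25 ± 0.40 (edgeR adjusted p = 0.191). Sytl2, for a Rab27-binding synaptotagmin-like protein, went the other way, with 51.8 CPM at 12 weeks and 25.1 CPM at 7 weeks (log2 fold 1.04 ± 0.26, edgeR adjusted p = 0.0691).

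Of 20 other active zone genes 19 were tested, with 0 called by edgeR, DESeq2 or limma-voom in any comparison (2 lower at 12 than at 7 weeks over both treatments at an unadjusted p under 0.05 by edgeR, beside 9.82% of all genes) and a median log2 fold of −0.25. Unc13b, a relative of Unc13a, had 94.8 CPM at 12 weeks and 84.1 CPM at 7 weeks (log2 fold 0.12 ± 0.25), and Erc1, for the scaffold ELKS, 81.7 CPM at 12 weeks and 81.0 CPM at 7 weeks (0.02 ± 0.28). Rims4 was too low to be tested.

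Across the 12 libraries the members fell into unlike patterns. Pearson correlations of log2 CPM were highest for Rab3c with Rph3a (0.85), Rab3b with Rph3a (0.82) and Rab3a with Rab3c (0.81), and Rab3d was negatively correlated with Rab3b (−0.79) and Rab3c (−0.57). Among 11276 genes with a mean of at least 10 CPM, the patterns most like Rab3a were those of Stmn2 (0.96), Stmn3 (0.96) and Tagln3 (0.95), and those most like Rab3c were Basp1, Syt1 and Chrna4 (0.93 each). Rab3d was most like Pcif1 (0.91), Leng8 (0.89) and Samd4b (0.87). For Bsn they were Arf3, Timm10 and Cxx1b (0.90 to 0.87), and for Pclo Cgref1, Vstm2a and Pcsk2 (0.94 to 0.84). The values in each library share its depth and cell makeup, so these correlations over 12 libraries in 4 groups describe the libraries and carry no test.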

How the data were processed

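RNA of sorted hKO1+ cells was amplified by SMARTer chemistry for low input, per the labels' protocols. Reads were processed with TopHat2 2.0.13, Bowtie2 2.2.3 and Cufflinks 2.2.1, per the submitters' processing notes, with the build not given in the sources used. The authors deposited estimated counts and FPKM per gene and library. In each library 98.7% to 98.9% of the deposited estimated counts were whole multiples, within 0.02 fragments, of a step between 0.685 and 1.3, and dividing by it gave the fragments per library.

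Deposited counts were rounded and tested with edgeR 4.0.16 (R 4.3.3): filterByExpr, TMM scaling and 1 quasi-likelihood fit of all 12 libraries with a mean for each group (8 residual degrees of freedom, biological coefficient of variation 46.6%). P-values were adjusted by Benjamini-Hochberg over 17380 genes, with a threshold of 0.05. The median SE of a log2 fold for 12 against 7 weeks over both treatments was 0.37, and 0.18 for genes of at least 100 CPM. The script was tested on simulated data. Nothing says that replicates are separate mice, so p-values measure only the spread between these samples. No libraries agreed within sampling noise. DESeq2 1.42.0, limma 3.58.1, other scalings and filters, recovered fragments, FPKM with pseudocounts of 0.1 and 1, and left-out libraries were tried as alternatives. Named genes outside the 10 were the 3 of highest mean CPM per list, any gene called, and those said to be chosen afterwards. Some genes that this rule names are not reported here. Likeness is the Pearson correlation of log2 CPM over 12 libraries, with the 3 highest named. The members, the lists and the comparison of 12 against 7 weeks over both treatments were chosen with earlier results of these data known.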

Additional observations from a re-analysis of the deposited data

How the results depend on the processing

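Of 1650 member folds over up to 24 settings, 117 changed sign. The count of 2 members called for 12 against 7 weeks over both treatments ranged from 0 to 2 when 1 library was left out. It was 0 without any 1 of saline replicates 1, 2 and 3 at 7 weeks, saline replicates 1, 2 and 3 at 12 weeks, synuclein replicate 1 at 7 weeks or synuclein replicate 1 at 12 weeks, and 1 without synuclein replicate 2 at 7 weeks. It was 0 without both synuclein libraries at 12 weeks that stood apart and 0 with FPKM at a pseudocount of 0.1 or 1, and the settings with fewer libraries have less data by construction. It stayed at 2 under both other scalings, both other filters, recovered fragments, DESeq2 and limma-voom. Over all 23 settings the log2 fold of Rab3a ran from −1.17 to −0.76 and that of Rab3c from −1.45 to −0.99. For 12 against 7 weeks after synuclein DESeq2 called 1 member. Among the folds that turned were Rims2 for 12 against 7 weeks after synuclein (0.18), and Rph3a (0.15), Rims2 (0.67) and Unc13a (0.39) for synuclein against saline at 12 weeks, all without the libraries that stood apart. Others were Rab3a for synuclein against saline at 7 weeks (−0.32 without synuclein replicate 1), Rab3c there (0.39 without saline replicate 1), and the Rab3c interaction (0.01 without synuclein replicate 1 at 7 weeks, and down to −0.95 without other libraries). The causes were not tested.

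Same-numbered replicates deviated together only weakly, with a median correlation of 0.04 and 1 of 18 pairs over 0.1. For pairs with unlike numbers the median was −0.03, with 1 of 36 pairs over 0.1. The numbers were not taken to pair samples. With the replicate number as a block 2 members were called over both treatments (Rab3a −1.02, adjusted p = 0.03, Rab3c −1.18, adjusted p = 0.019, edgeR) and 0 in every other comparison. All genes called over both treatments numbered 145, against 246 with the block, 468 by DESeq2, 24 to 214 when 1 library was left out, 0 without both libraries that stood apart and 1 and 0 with FPKM. After saline the 0 genes called became 165 by DESeq2, 34 with the block, 49 with only the groups compared, 14 without the libraries that stood apart, 7 without a filter and 3 with FPKM, and after synuclein 82 by DESeq2 and 4 with FPKM. The difference in the log2 ratio of Rab3a to Rab3d between the times, −1.29, ran from −1.48 to −0.99 over 14 settings chosen after seeing the data. Depth limits Rims1 most, at 0 to 25 fragments a library.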
